A study of Mus musculus with 18 samples.

Results

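Hoxb13 divided the 18 colon libraries of this study into 11 with a high level and 7 with a low level, chosen by their Hoxb13 value, log2(TPM + 1) of 5 or more against less. All 18 libraries were used, and treatment was held as a covariate, so the comparison asks which genes follow Hoxb13 among mice of the same treatment. TPM is a transcript level per gene length and per library total. The sets were selected on a measured gene, so tests of other genes describe their association with Hoxb13 and not an experimental contrast. The libraries are mouse colon RNA collected on day 2 in 3 groups of 6, which are sham without colitis, Vehicle and ISM012-042. Vehicle and ISM012-042 mice had colitis induced with TNBS, a hapten that inflames the colon, and the last group received ISM012-042, which inhibits PHD, a family of oxygen-sensing hydroxylases, and is restricted to the gut. The labels give neither strain, age nor the position along the colon from which each piece was taken.

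Hox genes lie in 4 clusters (Hoxa, Hoxb, Hoxc and Hoxd) and are used along the body axis in the order in which they lie along the chromosome, with paralogs of low number active towards the front and those of group 13 at the rear end. The gut keeps part of this order in the adult, and Hoxb13 is known as a gene of the distal colon and rectum. Proximal and distal colon also differ in function, since the proximal colon absorbs and metabolises nutrients that the small intestine left over, whereas the distal colon reclaims salt and water and is rich in goblet cells.

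Hoxb13 (chromosome 11, 96194316 to 96196610, GRCm38.p6) chose the libraries, so its values are given without a test. In sham, replicates 2, 3, 4 and 5 held 217.6, 237.7, 287.9 and 230.3 TPM and replicates 1 and 6 held 16.1 and 9.05 TPM. In Vehicle, replicates 1, 2 and 6 held 179.3, 84.5 and 95.6 TPM and replicates 3, 4 and 5 held 3.01, 3.40 and 1.52 TPM. In ISM012-042, replicates 2, 3, 4 and 6 held 219.1, 211.0, 50.7 and 68.8 TPM and replicates 1 and 5 held 8.90 and 0.329 TPM. Each treatment group thus contributed libraries to both sets, 4 against 2 in sham, 3 against 3 in Vehicle and 4 against 2 in ISM012-042. The library just inside the high set was ISM012-042 replicate 4, at 5.69 on the log2(TPM + 1) scale, and the library just outside was sham replicate 1, at 4.09.

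The sets also differed in the share of TPM taken by the 13 protein-coding genes of the mitochondrial genome. This share was 20.1 to 42.6% with a median of 29.8% in the high set and 31.2 to 57.8% with a median of 39.8% in the low set. After allowing for treatment it was 9.62 percentage points lower in the high set (n = 11 and 7, exact two-sided permutation p = 0.0231 over 4500 regroupings within treatment groups, smallest possible 0.000222). The sets did not overlap in Vehicle, at 22.4 to 30.0% against 43.1 to 57.8%. They overlapped in ISM012-042, at 20.1 to 35.7% in the high set against 33.1 to 39.8% in the low set. In sham they held 29.4 to 42.6% against 31.2 to 34.8%, so the high set there held both the lowest and the highest share. The pooled difference therefore does not describe sham. Because TPM has a fixed total, a larger mitochondrial share lowers all other values, and the median difference over all tested genes was 0.24 on the log2 scale, with 81.6% of them positive. Median-ratio scaling, which sets the libraries to a common median gene, brought that median to 0.02 and the positive share to 52.9%, and list counts that differ between the scales are given on both. On deposited TPM the median difference over all tested genes was -0.09 within sham, 0.52 within Vehicle and 0.23 within ISM012-042. Epithelial markers of the colon were present throughout, the sum of 10 such genes running from 9665 to 14849 TPM in the high set and from 7973 to 16440 TPM in the low set.

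**Figure D1:**
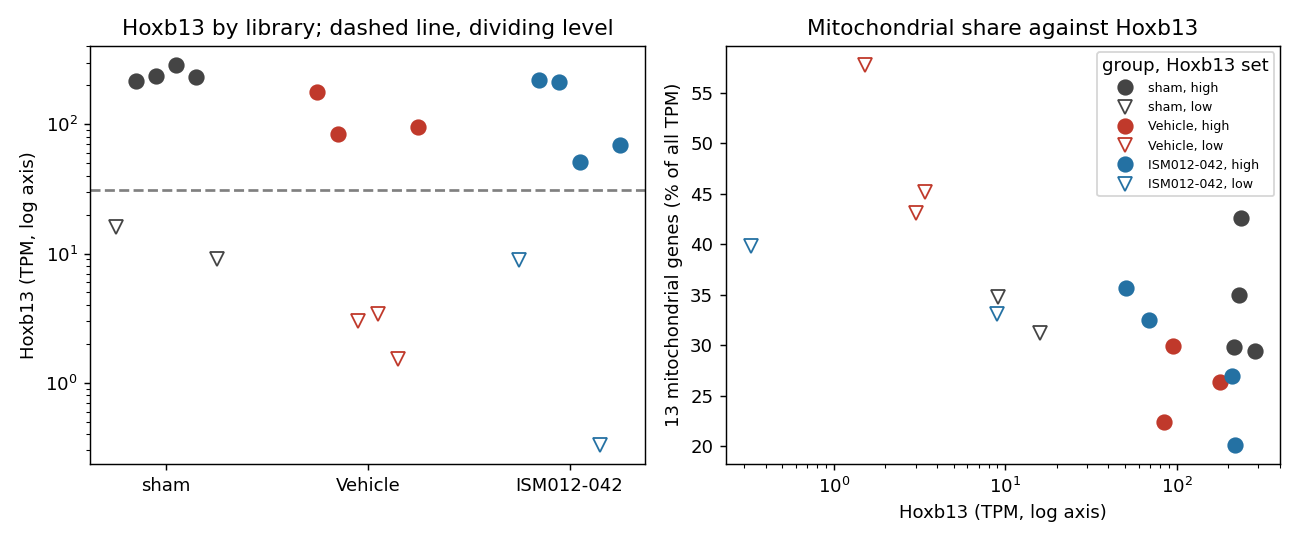
Left, Hoxb13 in TPM on a log axis for each of the 18 libraries by treatment group, with the dividing level as a dashed line; right, the share of TPM in 13 mitochondrial genes against Hoxb13 on a log axis. Filled circles are the 11 high libraries and open triangles the 7 low libraries, and no library lies between 16.1 and 50.7 TPM.

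Across the colon libraries 929 genes were higher and 142 lower in the high-Hoxb13 set, of 14128 tested (6.58% and 1.01%, or 7.58% in either direction, Hoxb13 left out). The test was limma on log2(TPM + 1) with Benjamini-Hochberg adjustment over all tested genes, which gives the adjusted p-values throughout, and 5000 genes had an unadjusted p under 0.05. The higher calls were 86.7% of all calls, and with median-ratio scaling 501 genes were higher and 553 lower (3.55% and 3.91%), so that the higher share was 47.5%. Of the calls made on deposited TPM, 497 higher and all 142 lower genes passed in the same direction on that scale. By over 4-fold, 52 genes were higher and 13 lower. With the mitochondrial share as a further covariate 100 genes were higher and 12 lower, and leaving out single libraries gave 382 to 1985 higher and 37 to 275 lower genes. The labels do not state that replicates came from separate animals, so that p-values rest on sample spread that may be technical.

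Promoters of 4 of the genes described next are shown because they carry, or lack, letters recognised by positional regulators of the gut. Of the 24 genes with the largest passing differences, 21 have a promoter window in the RefSeq table of GRCm38.p6, which spans 250 bases before to 50 after a start. Capitals mark TTTATTG, which posterior HOX and CDX proteins are known to bind, or CAAAGTCCA, a site of the epithelial factor HNF4, on either strand. All 4 windows lie on the plus strand, at chr15:75155011-75155310 for Ly6g, chr2:130012090-130012389 for Tgm3, chr3:122894822-122895121 for Fabp2 and chr19:39060756-39061055 for Cyp2c65. Ly6g and Tgm3 were higher and Fabp2 and Cyp2c65 lower in the high-Hoxb13 set.
Ly6g: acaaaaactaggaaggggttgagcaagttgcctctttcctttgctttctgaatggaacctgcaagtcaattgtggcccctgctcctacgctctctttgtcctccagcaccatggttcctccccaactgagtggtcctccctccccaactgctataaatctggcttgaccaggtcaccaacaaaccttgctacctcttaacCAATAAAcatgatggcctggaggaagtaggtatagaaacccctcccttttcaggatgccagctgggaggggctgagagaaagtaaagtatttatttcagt
Tgm3: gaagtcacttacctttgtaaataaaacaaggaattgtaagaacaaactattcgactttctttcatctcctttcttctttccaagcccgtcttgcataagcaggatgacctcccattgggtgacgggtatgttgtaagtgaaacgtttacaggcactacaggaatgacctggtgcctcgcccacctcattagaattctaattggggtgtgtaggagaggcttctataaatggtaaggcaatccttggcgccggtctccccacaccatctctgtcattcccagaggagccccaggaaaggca
Fabp2: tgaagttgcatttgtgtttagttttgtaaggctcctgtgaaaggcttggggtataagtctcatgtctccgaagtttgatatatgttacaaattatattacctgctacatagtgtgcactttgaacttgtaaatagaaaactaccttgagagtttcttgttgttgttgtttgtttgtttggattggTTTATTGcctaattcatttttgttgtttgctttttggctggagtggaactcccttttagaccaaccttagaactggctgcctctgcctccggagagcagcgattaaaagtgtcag
Cyp2c65: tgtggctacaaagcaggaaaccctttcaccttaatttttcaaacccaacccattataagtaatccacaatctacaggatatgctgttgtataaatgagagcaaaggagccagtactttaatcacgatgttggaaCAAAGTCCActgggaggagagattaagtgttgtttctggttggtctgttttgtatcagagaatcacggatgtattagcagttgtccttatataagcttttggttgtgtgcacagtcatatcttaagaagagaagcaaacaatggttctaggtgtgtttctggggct

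The Ly6g window holds TTTATTG on the minus strand and the Fabp2 window on the plus strand, so the same letters stood near the start of a gene higher and of a gene lower in the high set. The Tgm3 window holds neither motif. Over the 10585 tested genes with a window, TTTATTG occurred in 3.36%, against 30 of 665 higher genes (4.51%) and 6 of 95 lower genes (6.32%). Among the 33 genes with a window that were over 4-fold higher it occurred in 7 (21.2%), which were Casp14, Eno3, Gm29916, Hottip, Krt13, Ly6g and Tnip3. That group was drawn after the values were seen, and the share has no test. A second HOX motif, TTTACGA, occurred in 0.860% of all windows, in 5 of the 665 higher genes and in 0 of the 33. CAAAGTCCA occurred in 0.595% of all windows, in 10 of the higher and in 2 of the lower genes, Cyp2c65 and H2-T3. A match is a string of letters and not a measured binding site.

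The 12 genes with the largest positive differences included ion pump, secreted and surface proteins. Atp12a (chromosome 14, 56364669 to 56388551), the potassium pump of the distal colon, ranged from 21.3 through a median of 139 to 373 TPM in the high set and from 0.446 through 1.49 to 7.61 TPM in the low set. The sets did not overlap, and Atp12a was 4.75 ± 0.37 higher on the log2 scale (SE, n = 11 and 7, adjusted p = 2.71e-06). Sval1, a secreted protein of the seminal vesicle family, ranged from 270.2 to 1980 TPM (median 1001) in the high set and from 4.09 to 253 TPM (median 26.8) in the low set, again without overlap (4.42 ± 0.48 higher). Tgm3, a transglutaminase that cross-links proteins of surface epithelia, was 4.32 ± 0.31 higher, at 23.5 to 538 TPM (median 84.3) against 0.538 to 26.0 TPM (median 1.47), and the sets met only at their edges.

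Reg4, a lectin of colonic secretory cells, was 3.97 ± 0.62 higher, with medians of 749 and 33.5 TPM. Ly6g, better known as a neutrophil surface marker, was 3.85 ± 0.41 higher, at 51.1 to 705 TPM (median 379) against 4.02 to 67.98 TPM (median 23.3). None of the 8 tested neutrophil markers passed in limma, and 2 had an unadjusted p under 0.05. All 8 were positive on both scales, with a median of 1.20, and of 0.95 with median-ratio scaling. Over all tested genes 81.6% were positive, and 52.9% with median-ratio scaling. S100a8 and S100a9, the abundant neutrophil calcium-binding pair, differed by 1.06 and 1.14 (adjusted p = 0.424 and 0.385), and the summed neutrophil markers ranged from 7.54 to 25106 TPM in the high set and from 6.61 to 390 TPM in the low set. In the high sham replicates 2 to 5, Ly6g held 498.8, 705.3, 379.1 and 450.0 TPM, S100a8 held 0.969, 3.73, 1.40 and 6.49 TPM and Csf3r, the G-CSF receptor, held 0.944, 0.789, 1.05 and 1.55 TPM. Ly6g was thus high in libraries where these neutrophil genes held 6.49 TPM or less. Ly6g belongs to a family of similar neighbouring genes, whose reads the upstream counting could have split.

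The other 7 of the 12 genes with the largest positive differences ran from 3.53 to 2.85. Insl5, a hormone of distal enteroendocrine L cells, was 3.53 ± 0.46 higher, at 48.0 to 269 TPM against 1.66 to 63.3 TPM. Slc37a2, a sugar-phosphate exchanger, was 3.24 ± 0.58 higher, Fxyd4, a regulatory subunit of the sodium pump, 3.15 ± 0.57, and B3gnt7, a sulphated-glycan synthase, 3.13 ± 0.36. Vsig1, a junctional immunoglobulin protein, Pla2g2f, a secreted phospholipase, and Nt5e, which makes adenosine outside the cell, were 2.998 ± 0.45, 2.95 ± 0.30 and 2.85 ± 0.43 higher. Vsig1, Pla2g2f and Nt5e had no overlap between the sets. Over all tested genes, 64 had every high library above every low library (0.453% of those tested), 60 of which passed the test, and 49 with median-ratio scaling. One gene had every low library above every high library (0.00708%), Pcp4, a small calmodulin-binding protein of neurons and muscle, at 24.9 to 31.6 TPM in the low set and 2.69 to 24.5 TPM in the high set. Overlap was read on deposited TPM only, where 81.6% of all tested genes had positive differences.

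The genes lower in the high-Hoxb13 set included enterocyte genes of lipid handling and detoxification. Fabp2 (chromosome 3, 122895072 to 122899506), the intestinal fatty acid carrier, ranged from 23.7 to 476 TPM (median 186) in the high set and from 266 to 1311 TPM (median 536) in the low set, and fell by 2.09 ± 0.58 (SE, n = 11 and 7, adjusted p = 0.0383). Cyp2c65 and Cyp2c55, which oxidise fatty acids and drugs in the gut, fell by 2.71 ± 0.80 and 1.91 ± 0.51. Nts, the neurotensin hormone gene, fell by 2.61 ± 0.61, at 0 to 21.0 TPM against 14.6 to 41.4 TPM. The sulphate transporter Slc13a1 fell by 2.49 ± 0.64, the brush-border protein Tmigd1 by 2.25 ± 0.64, the bilirubin-conjugating enzyme Ugt1a1 by 2.21 ± 0.60 and the lipid exporter Abca12 by 2.14 ± 0.58. Apol10a, Prap1, Prkg2 and H2-T3, an apolipoprotein, a proline-rich secreted protein, a cyclic GMP kinase and a class I-like antigen, fell by 2.17 to 2.10. The 12 largest lower genes are those of this paragraph without Cyp2c55, together with Cyp2e1, which is described next. Among these 12 genes the sets overlapped in every case, and adjusted p-values ran from 0.0183 to 0.0486.

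Cyp2e1, the ethanol-oxidising cytochrome, had the most negative difference among the genes that passed. Markers of fat had negative differences in the same comparison, among them Cfd, the adipocyte protease adipsin, at -3.94 ± 1.29, which did not pass (adjusted p = 0.0654). Cyp2e1 fell by 3.88 ± 1.13 (adjusted p = 0.0451), with 0 to 321 TPM (median 23.4) in the high set and 6.23 to 744 TPM (median 224) in the low set. In sham, Cyp2e1 held 53.0, 0.091, 0.456 and 0.636 TPM in the high replicates 2 to 5, and Adipoq, the adipocyte hormone adiponectin, held 76.4, 0, 0 and 1.67 TPM in the same libraries. In the low sham replicates 1 and 6, Cyp2e1 held 6.23 and 223.6 TPM and Adipoq 6.29 and 297.9 TPM, so the libraries stood in nearly the same order for both genes. All 12 adipocyte markers tested had negative differences, with a median of -1.67, and 1 of them, Pparg, a lipid-sensing receptor also present in colonocytes, passed. Over all tested genes 81.6% were positive and 1.01% lower. The summed adipocyte markers ranged from 60.7 to 3314 TPM in the high set and from 198.5 to 4621 TPM in the low set, and none was 0 in all libraries. With the mean log2 level of these markers as a covariate, 85 genes were higher and 0 lower in limma (2973 and 156 at an unadjusted p under 0.05), Cyp2e1 stood at -1.01, and 10 of the 12 largest higher genes and 0 of the 12 largest lower genes passed. That mean level itself differed between the sets, with a median of 3.41 in the high set and 5.89 in the low set. This fit therefore cannot tell fat from the Hoxb13 set, and the part of fat in the lower genes was not tested.

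**Figure D2:**
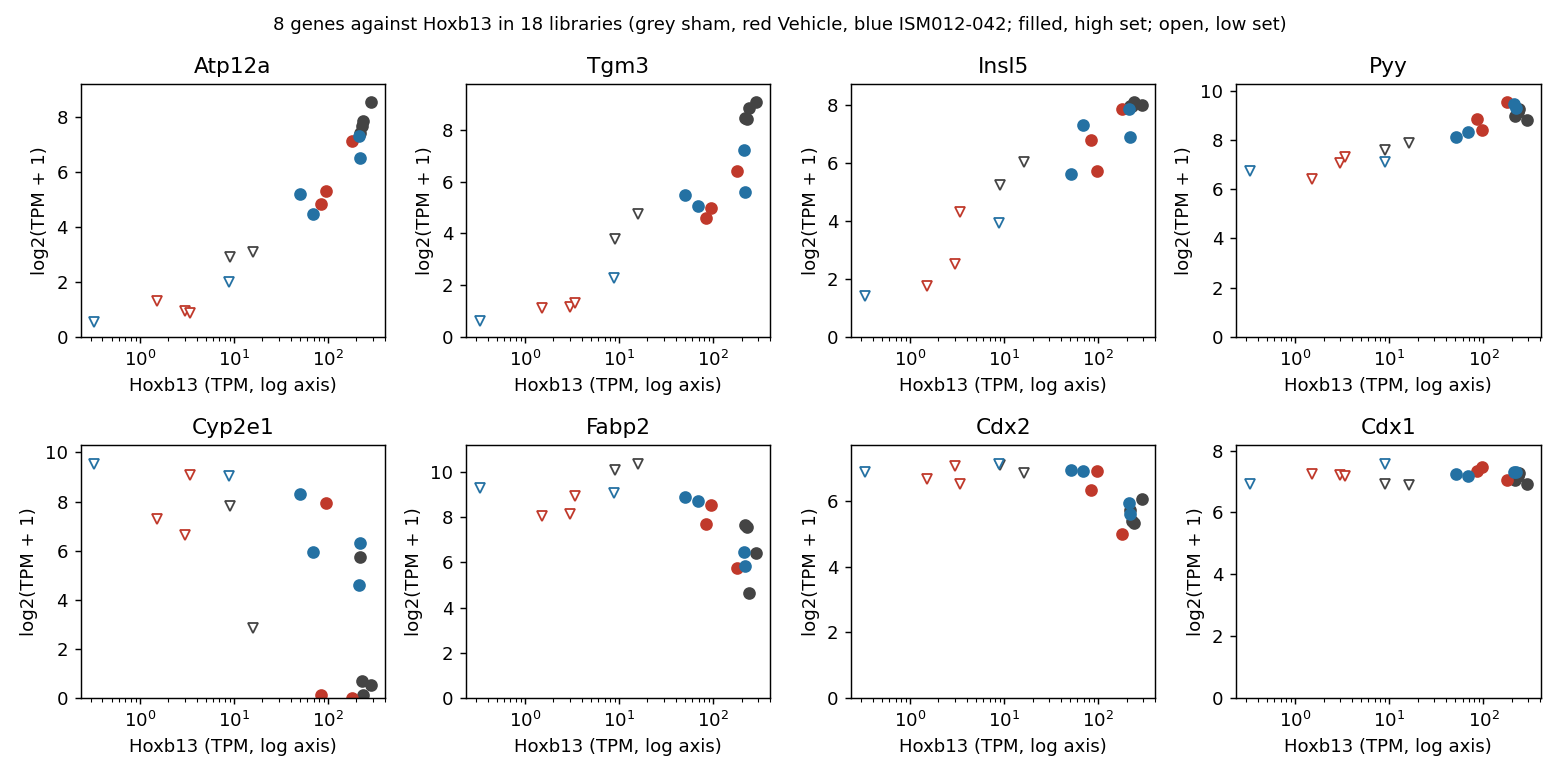
Levels of 8 genes as log2(TPM + 1) against Hoxb13 in TPM on a log axis, 1 point per library, with colours for treatment groups, filled symbols for the 11 high libraries and open symbols for the 7 low libraries. Atp12a, Tgm3, Insl5 and Pyy climb with Hoxb13 in all 3 groups, Cyp2e1, Fabp2 and Cdx2 spread downwards, and Cdx1 stays level.

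Of the tested Hox genes, Hoxa13 and Hoxd13 were higher and Hoxb5 and Hoxd8 lower in the high-Hoxb13 set. Of the 39 Hox genes in the table, 25 other than Hoxb13 were tested. Hoxd13 (chromosome 2, 74668225 to 74671603) held 0.280 to 84.6 TPM (median 5.88) in the high set and 0 to 3.07 TPM (median 0.521) in the low set, and was 2.75 ± 0.72 higher (adjusted p = 0.0328). Hoxa13 (chromosome 6, 52258853 to 52260880) held 9.78 to 67.98 TPM (median 32.8) against 0.630 to 39.7 TPM (median 5.66), and was 1.78 ± 0.46 higher (adjusted p = 0.0314). The sets overlapped for both genes. Hoxc13 and Hoxc12 were listed at 0 in all 18 libraries, and the other Hoxc genes did not exceed 0.859 TPM.

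In the Hoxb cluster, which holds Hoxb13, all 8 other tested genes had negative differences, with a median of -1.12. The nearest of them, Hoxb9, begins 74719 bases beyond the end of Hoxb13, and stood at -0.48 ± 0.21 (adjusted p = 0.122), with 13.2 to 44.5 TPM in the high set and 24.7 to 51.5 TPM in the low set. Hoxb5 fell by 1.10 ± 0.31 (adjusted p = 0.0391), while Hoxb6 at -1.39 ± 0.48, Hoxb7 at -1.30 ± 0.43 and Hoxb3 at -1.15 ± 0.37 did not pass, and Hoxb3 and Hoxb7 passed with median-ratio scaling. In the Hoxd cluster, Hoxd8 fell by 1.12 ± 0.26 (adjusted p = 0.0174), the other paralogs up to Hoxd10 were negative without passing, Hoxd4 passed with median-ratio scaling at -1.12 (adjusted p = 0.0480), and Hoxd11 stood at 0.16 ± 0.32. In the Hoxa cluster 9 of 10 tested genes were positive (7 with median-ratio scaling), and Hoxa13 alone passed on either scale. Over all tested genes 81.6% were positive, and 52.9% with median-ratio scaling. The Hoxa signs were not shared by the treatment groups. Within sham every tested Hoxa gene except Hoxa13 was negative, and within Vehicle only Hoxa4 and Hoxa11 were. Hoxa9 differed by -0.57 in sham and 1.99 in Vehicle, and Hoxa10 by -0.38 and 1.43. Members of 1 cluster are neighbours in the genome and are not independent.

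The noncoding RNAs at the rear end of the Hoxa cluster were also higher. Hottip, transcribed just beyond Hoxa13, was 2.12 ± 0.33 higher (adjusted p = 0.00110) and Hoxa11os was 1.79 ± 0.47 higher, at 9.62 to 128 TPM against 1.76 to 64.1 TPM. Hoxa11, the gene opposite Hoxa11os, stood at -0.27 ± 0.26, and reads of such antisense pairs cannot be told apart unless strand was used in counting, which is not given in the sources used here. In the Hoxb cluster Hoxb5os fell by 0.71 ± 0.21. Evx1, the even-skipped homeobox gene next to Hoxa13, stood at 0.45 ± 0.18 (adjusted p = 0.0992).

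**Figure D3:**
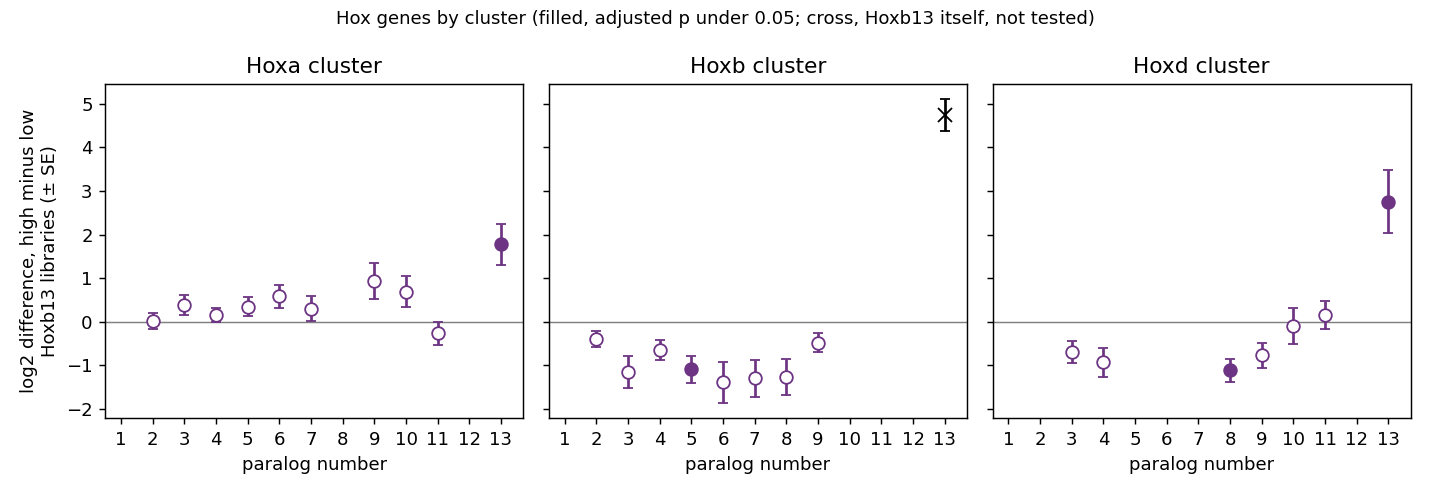
Log2 difference between high-Hoxb13 and low-Hoxb13 libraries with SE for each tested Hox gene, by paralog number within the Hoxa, Hoxb and Hoxd clusters, with filled points for adjusted p under 0.05 and a cross for Hoxb13, which was not tested. Hoxa13 at 1.78 and Hoxd13 at 2.75 are positive, while the 8 other Hoxb genes are all below 0.

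Hoxa13 was next read within each treatment group. Sham libraries held 35.9, 33.1, 67.98 and 36.8 TPM of Hoxa13 in the high set and 39.7 and 39.4 TPM in the low set, a difference of 0.07. In Vehicle the high libraries held 28.7, 25.3 and 15.9 TPM and the low libraries 2.68, 12.2 and 0.630 TPM, a difference of 2.46 (adjusted p = 0.00898). In ISM012-042 the high libraries held 32.8, 24.5, 9.78 and 40.4 TPM and the low libraries 5.66 and 1.19 TPM, a difference of 2.71 (adjusted p = 0.33). The Vehicle difference exceeded that of sham by 2.39 (adjusted p = 0.0772), which did not pass. Hoxd13 differed by 3.20, 3.14 and 1.87 in sham, Vehicle and ISM012-042.

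Among transcription factors of the epithelium 1 of 27 was higher and 3 were lower, against 6.58% and 1.01% of all tested genes. Cdx2, which holds the intestinal programme, fell by 0.88 ± 0.25 (adjusted p = 0.0398), at 31.0 to 122 TPM (median 59.7) against 89.9 to 139 TPM (median 118). In sham the Cdx2 levels of the high set, 51.5, 39.6, 66.4 and 40.8 TPM, all lay below those of the low set, 113.5 and 136.3 TPM. The sets overlapped in Vehicle, at 31.0, 80.0 and 118.8 TPM against 131.9, 89.9 and 101.5 TPM. They also overlapped in ISM012-042, at 47.3, 59.7, 121.6 and 119.2 TPM against 139.1 and 117.8 TPM. Under 19 of 39 alternative settings Cdx2 passed. Its paralog Cdx1 stood at 0.10 ± 0.10, and at -0.16 with median-ratio scaling, and ranged from 118 to 189 TPM over all libraries. Isx, which restrains vitamin A uptake, fell by 1.61 ± 0.40, Gata5, a factor of the absorptive lineage, by 0.46 ± 0.13, and Foxa2, a factor of secretory cells, was 1.32 ± 0.21 higher. Gata5 held only 0.246 to 1.95 TPM over all libraries, near the filter level of 1 TPM, and passed under 20 of 38 alternative settings. The list median was 0.22, against 0.24 for all tested genes.

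Transport genes for salt and water were higher in 8 of 25 cases and lower in none, against 6.58% and 1.01% of all tested genes. Beside Atp12a these were the sodium channel subunits Scnn1a at 0.96 ± 0.22 and Scnn1g at 1.23 ± 0.18, the phosphate carrier Slc20a1 at 1.72 ± 0.24, the water channel Aqp8 at 1.79 ± 0.46, the anion exchanger Slc26a3 at 1.08 ± 0.30, the bicarbonate channel Best2 at 1.32 ± 0.30 and the carbonic anhydrase Car4 at 0.58 ± 0.15. Scnn1g held 2.12 to 6.38 TPM in the high set and 0.209 to 1.29 TPM in the low set, without overlap. Scnn1b, the remaining channel subunit, stood at 0.13 ± 0.22 and at -0.09 with median-ratio scaling. On that scale 4 of the 8 passed, which were Atp12a, Scnn1g, Aqp8 and Slc20a1. Sham libraries held 743.2, 777.8, 1117 and 693.8 TPM of Aqp8 in the high set and 984.6 and 679.9 TPM in the low set. Vehicle libraries held 75.3 to 251.8 TPM against 13.5 to 79.4 TPM, and ISM012-042 libraries 123.7 to 354.4 TPM against 15.4 to 28.6 TPM. The list median was 0.33 and 0.07 with median-ratio scaling.

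Of 22 tested genes listed for small intestine and proximal colon 4 were lower and 2 higher, with a median of -0.28. Over all tested genes 1.01% were lower and 6.58% higher. With median-ratio scaling Alpi, the intestinal alkaline phosphatase, was also lower, giving 5 lower genes (3.91% of all tested genes were lower). Fabp1, the liver-type fatty acid carrier, fell by 1.498 ± 0.45, beside Fabp2, Cyp2c55 and Cyp2c65. Slc15a1, the peptide transporter of absorptive cells, went the other way by 2.36 ± 0.28, at 25.8 to 226 TPM against 5.45 to 53.2 TPM. The water channel Aqp4 was 2.60 ± 0.63 higher, but sham libraries held 166.3, 76.2, 319.3 and 112.5 TPM in the high set and 206.6 and 132.7 TPM in the low set. Its difference was -0.18 in sham and 4.33 in Vehicle, and these differed by 4.51 (adjusted p = 0.0158). Car1, a carbonic anhydrase abundant in proximal colonocytes, stood at -1.24 ± 0.55 and did not pass (adjusted p = 0.127).

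Of 16 tested hormone and secretory granule genes 2 were higher and 3 lower. Over all tested genes 6.58% were higher and 1.01% lower, and 3.55% and 3.91% with median-ratio scaling. With median-ratio scaling 2 were higher and 6 lower, the added ones being Chga and Scg3, which are granins, and Pcsk1, a prohormone convertase, at -0.78, -0.72 and -1.35. Pyy, the peptide YY gene of L cells, held 274 to 734 TPM (median 503) in the high set and 83.1 to 232 TPM (median 136) in the low set, without overlap, and was 1.74 ± 0.21 higher (adjusted p = 9.66e-05). Insl5, of the same cells, is described above, and Gcg, the proglucagon gene, stood at 0.68 ± 0.27 (adjusted p = 0.0980). Nts, Sst, the somatostatin gene, and Sct, the secretin gene, fell by 2.61, 1.15 and 1.04. Tph1, the serotonin-synthesis gene of enterochromaffin cells, stood at -0.39 ± 0.26. In bulk tissue a change in the number of such cells and in RNA per cell cannot be told apart.

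Goblet cell genes were higher in 3 of 19 cases (6.58% of all tested genes were), in Reg4, in the trypsin-inhibitor gene Spink4 by 1.82 ± 0.41 and in the trefoil peptide Tff3 by 0.64 ± 0.14, which did not pass with median-ratio scaling (adjusted p = 0.172). Muc2, the main gel-forming mucin, stood at -0.78 ± 0.26 (adjusted p = 0.0669), and it passed as lower with median-ratio scaling at -1.04 (adjusted p = 0.0114), which left 2 higher and 1 lower on that scale. Of 17 antimicrobial genes Wfdc2, a protease inhibitor, and Pla2g2a, a bacteria-killing phospholipase listed by RefSeq as a transcribed pseudogene in this assembly, were 2.83 ± 0.34 and 2.82 ± 0.47 higher. Of 11 claudins, the seal proteins of tight junctions, Cldn8 passed at 0.89 ± 0.19, and with median-ratio scaling Cldn15 and Cldn23 were lower, at -0.77 and -0.53.

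Genes of drug and bile acid handling went both ways, with 3 of 20 higher and 3 lower, against 6.58% and 1.01% of all tested genes. With median-ratio scaling 5 were lower, the sulphotransferases Sult1a1 and Sult1d1 being added, against 3.91% of all tested genes. The cytochromes Cyp2d9 and Cyp2d10, members of a family of similar copies, were 1.71 ± 0.29 and 1.44 ± 0.29 higher, with Nr1i3, the xenobiotic receptor CAR, at 0.99 ± 0.18. Beside Cyp2c55 and Ugt1a1, the bile acid exporter subunit Slc51b fell by 1.39 ± 0.37. Among 16 genes of ketone and fatty acid metabolism Pdk4, which diverts fuel from glucose, fell by 1.77 ± 0.48, and 14 were negative. With median-ratio scaling all 16 were negative and 5 passed. Over all tested genes 81.6% were positive, and with median-ratio scaling 52.9% were positive and 3.91% were lower. In retinoid metabolism Rbp2, a carrier of absorbed vitamin A, and Bco1, which cleaves beta-carotene, were 1.31 ± 0.22 and 0.56 ± 0.14 higher, and Aldh1a1, which makes retinoic acid, fell by 1.73 ± 0.49. With median-ratio scaling Bco1 did not pass, and Rxra, a retinoid receptor, was lower at -0.63.

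Of 18 stromal WNT and BMP signals 4 were higher, against 6.58% of all tested genes. They were the BMP antagonist Grem1 at 1.88 ± 0.54, the ligands Bmp2 and Bmp5 at 1.06 ± 0.18 and 0.57 ± 0.15, and the WNT-binding Sfrp1 at 0.99 ± 0.30. Bmp2 alone passed with median-ratio scaling. Of 5 tested pacemaker cell markers Thbs4, a matrix protein, and Ano1, the chloride channel of these cells, were 2.69 ± 0.34 and 1.52 ± 0.30 higher, while Kit, their defining receptor, stood at -0.51 ± 0.19 and passed as lower with median-ratio scaling at -0.76. Among patterning factors of the mesenchyme 1 of 19 passed, Tbx3, which fell by 0.93 ± 0.26. Osr2 stood at -2.66 ± 0.88 (adjusted p = 0.0669), with 5.005 to 98.7 TPM in the low set and 0.119 to 84.7 TPM (median 1.005) in the high set, so that the sets overlapped widely. Of 12 crypt and WNT target genes Lgr5, the stem cell receptor, was 0.63 ± 0.15 higher. All 12 proliferation genes were positive on both scales, against 81.6% of all tested genes and 52.9% with median-ratio scaling. Their median was 1.22, and none passed in limma over all tested genes, whereas all 12 had an unadjusted p under 0.05. Mki67, the proliferation antigen, differed by -0.26 in sham and 3.21 in Vehicle, and the low Vehicle libraries held 5.74, 6.29 and 2.03 TPM.

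Markers of tissues that lie beside the distal gut were examined in the same libraries. Of 8 prostate and urogenital markers Spink1, a trypsin inhibitor, was tested, and it was 2.79 ± 0.26 higher, while the prostate genes Pbsn and Msmb were listed at 0 in all libraries. Krt13, a keratin of squamous epithelium such as that of the anus, was 2.40 ± 0.62 higher, with 33.8, 24.6 and 18.2 TPM in the high Vehicle libraries and under 1 TPM in all 6 sham libraries, and the other 3 squamous markers tested did not pass. Cela1, an elastase on the pancreas list, was 2.34 ± 0.33 higher, while the pancreatic colipase gene Clps stood at -0.28 ± 0.30 and Cpa1 was listed at 0 in all libraries. Ckm, the muscle creatine kinase, fell by 1.14 ± 0.20, and 11 of 12 smooth muscle markers were negative, with 1 lower, the myosin kinase gene Mylk at -0.69 ± 0.21. With median-ratio scaling all 12 were negative and 2 lower, Mylk and the myosin gene Myh11. Over all tested genes 81.6% were positive and 1.01% lower, and 52.9% and 3.91% with median-ratio scaling. No B cell, plasma cell, T cell, endothelial, fibroblast or mesothelial marker passed in limma. At an unadjusted p under 0.05 these were 0 for the B, plasma and T cell lists, 2 of 11 for endothelium, 3 of 10 for fibroblasts and 4 of 6 for mesothelium. All 10 B cell and all 11 endothelial markers were positive. So were 9 of 10 T cell, 9 of 10 fibroblast, 5 of 6 plasma cell and 2 of 6 mesothelial markers. In the same order 10, 9, 6, 7, 4 and 2 were positive with median-ratio scaling. With median-ratio scaling Upk3b, a mesothelial surface protein, passed as lower at -1.04.

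All 10 macrophage and monocyte markers were positive, with a median of 0.84, where 81.6% of all tested genes were positive. With median-ratio scaling all 10 were positive too, against 52.9%. Ly6c2, a monocyte surface protein, passed at 0.82 ± 0.20 but not with median-ratio scaling. Of 4 mast cell genes Cma1, a chymase, was 1.11 ± 0.31 higher, and all 4 were positive. None of 17 interferon-stimulated genes, of 7 tuft cell genes, of 16 enteric neuron and glia genes and of 10 colon epithelium markers passed in limma, with 0, 2, 2 and 1 of them at an unadjusted p under 0.05. Their medians were -0.08, -0.08, -0.12 and 0.11, all below the 0.24 of all tested genes. With median-ratio scaling Krt20, a keratin of differentiated colonocytes, passed as lower at -0.54.

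**Figure D4:**
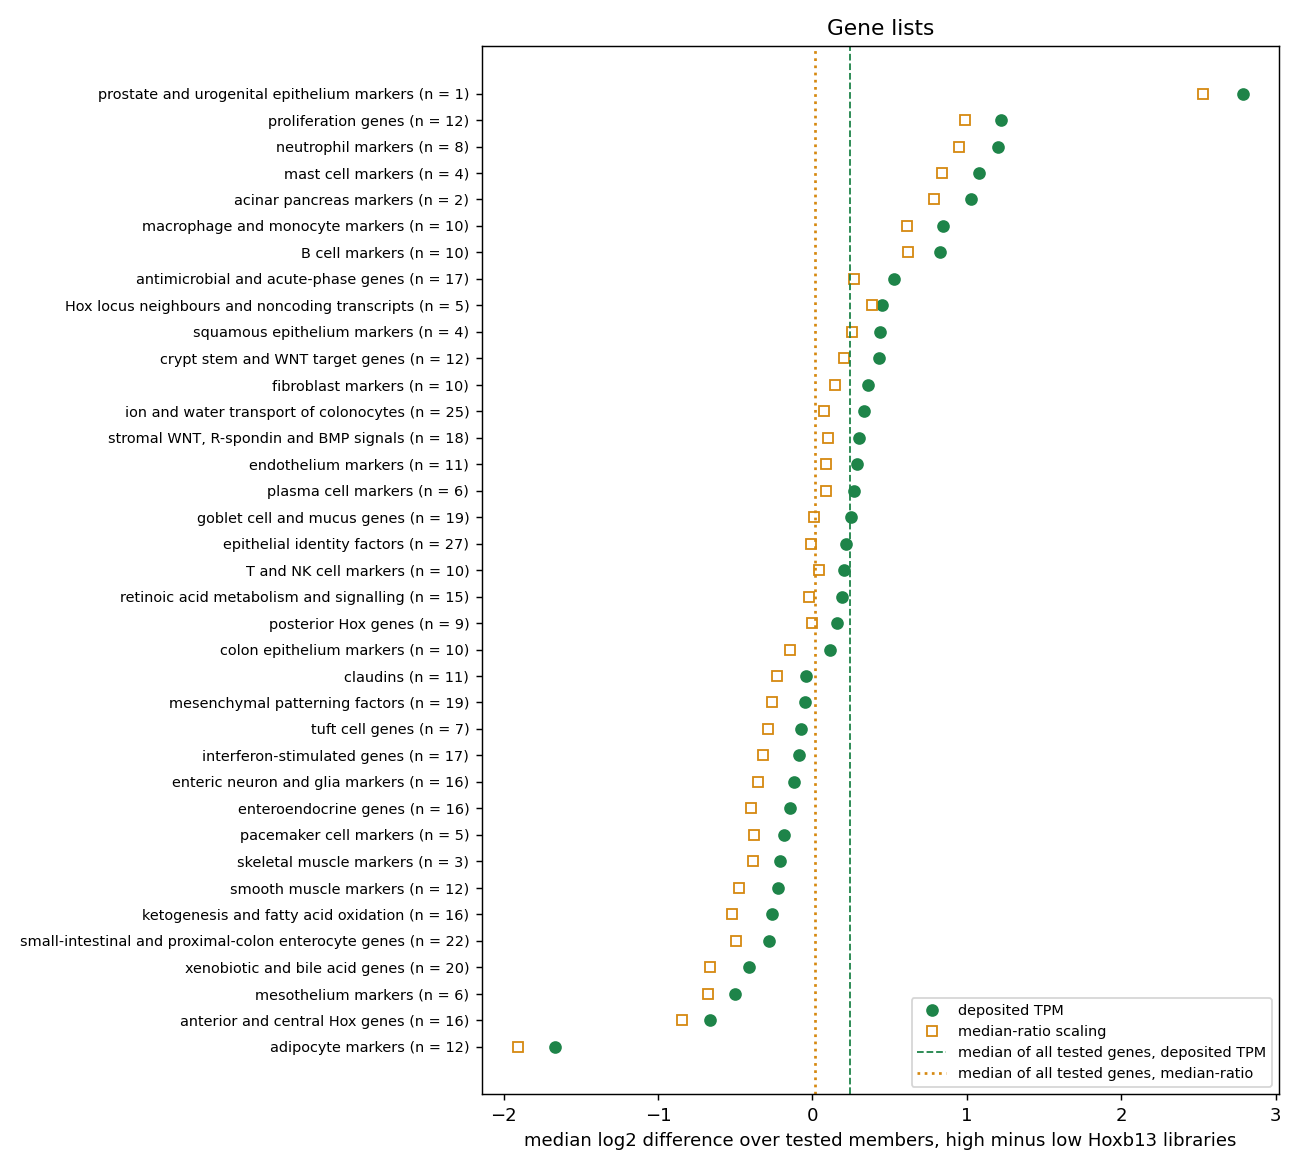
Median log2 difference, high minus low Hoxb13 libraries, over the tested members of each of 37 gene lists, for deposited TPM (filled circles) and after median-ratio scaling (open squares), with vertical lines at the medians of all tested genes, 0.24 and 0.02. Adipocyte markers lie lowest at -1.67, and the single-gene prostate list is Spink1.

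Within each treatment group the largest differences had the same direction. For all 12 largest higher and all 12 largest lower genes the sign was the same in sham, Vehicle and ISM012-042. Atp12a differed by 4.88, 4.73 and 4.63, Tgm3 by 4.43, 4.15 and 4.39 and Ly6g by 3.68, 3.91 and 3.93. Fabp2 differed by -3.65, -1.04 and -1.72. Of the 929 higher genes 912 (98.2%) were positive in all 3 groups and of the 142 lower genes 137 (96.5%) were negative in all 3, against 29.6% and 5.93% of all tested genes, a share that the pooled test itself favours.

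Tested within groups, 107 genes passed in sham (0.757%), 6302 in Vehicle (44.6%) and 11 in ISM012-042 (0.0779%), where groups of 4 against 2 or 3 against 3 libraries were fitted together and shared 1 estimate of spread. In sham 63 were higher and 44 lower, and of the 12 largest higher genes Atp12a, Tgm3, Ly6g, Slc37a2, B3gnt7 and Pla2g2f passed there. The 11 genes of ISM012-042, all higher, were Atp12a, Cyp2d13, Cyp2d9, Ggh, Gm33051, Pla2g2a, Spink1, Sval1, Tgm3, Thbs4 and Wfdc2. Atp12a, Cyp2d13, Ggh, Spink1 and Tgm3 passed as higher in all 3 groups, which share no libraries. Of the 63 genes higher in sham 43 were also called higher in Vehicle (68.3% of the sham list and 0.706% of the Vehicle list), where 43.1% of all tested genes were called higher in Vehicle. The same sign in both other groups was found for 61, against 70.7% of all tested genes that were positive in both. Of the 44 lower in sham 8 were called lower in Vehicle (18.2% and 3.83%, with 1.48% of all tested genes called lower there), and 13 had the same sign in both other groups, against 7.22% of all tested genes that were negative in both. Without sham replicate 1 or 6, which leaves 1 low library assumed to vary like the others, 0 genes passed in sham by limma (953 and 664 at an unadjusted p under 0.05). Without ISM012-042 replicate 5, 0 passed in that group (482 at an unadjusted p under 0.05).

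In Vehicle 6093 genes were higher and 209 lower, and 1660 and 1385 with median-ratio scaling. The mitochondrial shares of the Vehicle sets, given above, were 22.4 to 30.0% against 43.1 to 57.8%, and their part in this count was not tested. The test of the difference between Vehicle and sham passed for 3550 genes (25.1%), for 698 with median-ratio scaling, for 0 without sham replicate 1 (4320 at an unadjusted p under 0.05 in limma) and for 1 without sham replicate 6. For ISM012-042 minus sham and minus Vehicle 0 genes passed in limma (941 and 2856 at an unadjusted p under 0.05), which does not show that the groups behaved alike.

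**Figure D5:**
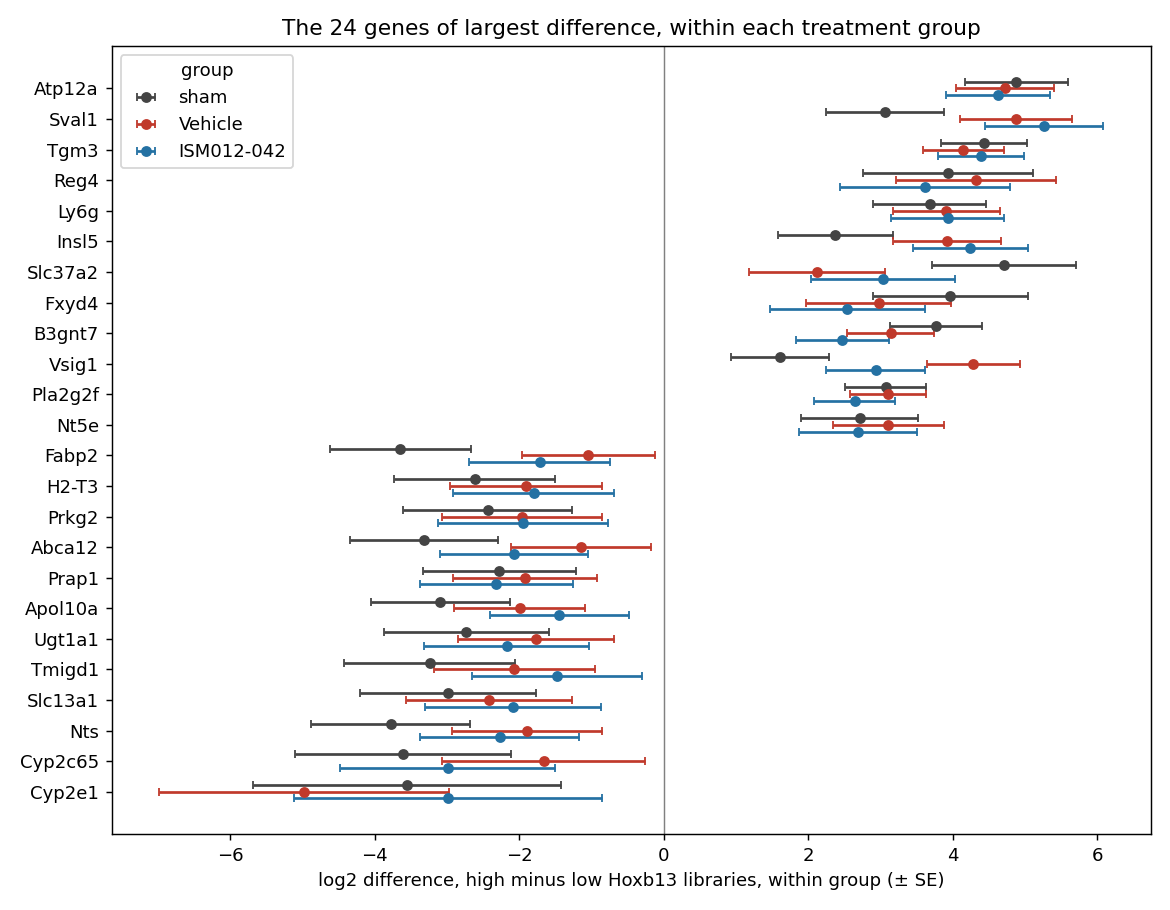
Log2 difference between high-Hoxb13 and low-Hoxb13 libraries with SE within sham (grey, 4 against 2 libraries), Vehicle (red, 3 against 3) and ISM012-042 (blue, 4 against 2) for the 24 genes of largest passing difference. All 12 higher genes are right of 0 and all 12 lower genes left of 0 in each group.

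The genes whose levels followed Hoxb13 most closely after removing group means were Tgm3 (Pearson r = 0.977), Atp12a, Clic6, Sval1, Spink1 and Pla2g4f (0.966), over 18 libraries. Clic6, a chloride channel protein, and Pla2g4f, a phospholipase, were 2.57 ± 0.26 and 2.55 ± 0.24 higher. At the other end were Pcp4 (r = -0.852), Camk2n1, an inhibitor of calcium-dependent kinase, Ckm, Mpst, which makes hydrogen sulphide, Mapre3, a microtubule-end protein, and Tmem252 (r = -0.801). Pcp4 and Tmem252 fell by 1.58 ± 0.29 and 1.80 ± 0.31, and Camk2n1, Mpst and Mapre3 by 0.81 to 0.87. These correlations share the libraries that define the sets and describe them only.

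Holding the Hoxb13 set in the model altered how many genes the treatments called. For Vehicle against sham 630 genes passed without it and 811 with it, with 625 in common (99.2% of the first list and 77.1% of the second). For ISM012-042 against sham 200 passed without and 473 with it, and all 200 were among the 473. For ISM012-042 against Vehicle 0 genes passed either way in limma, with a smallest adjusted p of 0.233 in both fits and 2689 and 2594 genes at an unadjusted p under 0.05. Atp12a differed between Vehicle and sham by -2.85 without the set (adjusted p = 0.295) and by -2.06 with it (adjusted p = 0.0114).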

How the data were processed

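Colon RNA from 18 libraries was measured, and the values are TPM as deposited by the authors, in 1 table of 35976 genes. The submitters' processing notes name DRAGEN 4.0.3 and the build mm10, and strand use and annotation are not stated in the labels at hand. TPM keeps no read count, so depth is unknown. Libraries were assigned by Hoxb13 at log2(TPM + 1) of 5. Genes with at least 1 TPM in at least 6 libraries were tested with limma 3.58.1 in R 4.3.3 on log2(TPM + 1), so that differences of low genes are understated. Treatment was a covariate, empirical Bayes used trend and robust settings, and an adjusted p under 0.05 was a call. Within-group contrasts came from 1 fit with a mean for each treatment and set, and fits with and without the set gave the treatment contrasts. On simulated data 82% of 2-fold and 98.4% of 4-fold changes among 200 changed genes were recovered, with 10 false calls on average among 14128 genes. The simulated noise was normal and independent between genes, and changes were placed only in genes above a minimum mean level. These rates need not hold for libraries in which many genes vary together, as with the mitochondrial share.

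Genes named are the 12 passing genes of largest difference in each direction with a mean of 5 TPM in the higher set, without predicted genes, pseudogenes, receptor segments and mitochondrial genes, the 6 closest to Hoxb13 in each direction, up to 4 of smallest p in each of 37 lists (437 of 543 genes tested), and a set list of genes of colonic position and function. S100a8, S100a9, Csf3r, Casp14, Eno3, Tnip3, genes counted within groups and list genes that passed with median-ratio scaling alone were named after their values were seen. The members and lists were chosen with earlier results of these data known. Symbols matched RefSeq for 32501 genes. Alternatives covered pseudocount, filter, scaling, weights, the dividing level, covariates, the replicate number as a block and each library left out. Same-numbered libraries of different groups had correlations of -0.38 to 0.609 in their deviations from group means, so the numbers were not taken to pair them. No pair of libraries was identical, the highest correlation being 0.986. Some genes of the rule are not reported here.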

Additional observations from a re-analysis of the deposited data

Results flagged for a closer look

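Among the 7 low-Hoxb13 libraries, 8 of 183 genes had 1 library far from the other 6, and chance flags about 1 in 20 groups. Vehicle replicate 5 held the highest levels of 3 B cell genes, with 8.10 TPM of Ms4a1 against 1.87 TPM in the next library, 3.64 TPM of Cr2 against 0.814 TPM and 6.65 TPM of Fcer2a against 1.48 TPM. The same library held the lowest Gcg level, 36.0 TPM against 67.7 TPM. Sham replicate 1, the low library with the most Hoxb13, held 2.81 TPM of Fxyd4 against 0.535 TPM in the next. Vehicle replicate 4 held 13.5 TPM of Sfrp1 against 7.89 TPM, Vehicle replicate 3 held 349 TPM of the bile acid exporter subunit Slc51b against 142 TPM, and ISM012-042 replicate 1 held 9.68 TPM of the skeletal muscle actin gene Acta1 against 2.66 TPM.

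For 19 named genes the difference between high and low libraries was not the same in Vehicle as in sham, by the limma test of that difference. These were 10.4% of the 182 named genes, below the 25.1% of all tested genes that passed, and with median-ratio scaling 5 of the 19 passed, which were Aqp4, Cyp2d10, Cyp2d9, Mki67 and Saa1. It was more positive in Vehicle for the water channel Aqp4 by 4.51, for Mki67 by 3.46, for the cornified envelope gene Sprr1a by 3.10, for Pla2g2a by 2.75, for Vsig1 by 2.67, for Hoxa9 by 2.57, for the replication gene Mcm5 by 2.34 and for Thbs4 by 2.15, all on the log2 scale. Smaller gaps of the same sign were found for Gcg at 1.96, Krt18 at 1.76, Cldn8 at 1.40, Sct at 1.31, Cldn12 at 1.09, Cdh1 at 1.06, Epcam at 0.924 and Krt19 at 0.822. It was more negative for Saa1 at -2.10, Cyp2d10 at -2.05 and Cyp2d9 at -1.61. Adjusted p-values ran from 0.0139 to 0.0496. The low Vehicle libraries had the largest mitochondrial shares, 43.1 to 57.8% against 22.4 to 30.0% in the high Vehicle libraries, and their part in these differences was not tested. Without sham replicate 1 no gene passed this test.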

How the results depend on the processing

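The direction of single genes was steadier than the number of genes called. Over 182 named genes and 39 alternatives, 6046 of 7057 values kept direction and call, 698 lost the call, 265 gained it and 48 changed sign, none of the 48 in a gene that passed. Atp12a, Sval1, Tgm3, Reg4, Ly6g, Insl5 and Pyy passed under all 39. Among the 12 largest lower genes the number of alternatives passed ran from 13 (Cyp2c65) to 33 (Nts). The alternatives of the sham and ISM012-042 libraries alone, the neutrophil score, and median-ratio scaling joined with the mitochondrial share or the Hoxb13 level, were added after seeing the data. Causes of these changes were not tested. TPM carry no depth, so the precision of low values is unknown.

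Higher and lower genes, 929 and 142 as reported, numbered 560 and 78 without a filter, 501 and 553 with median-ratio scaling, 497 and 416 with mitochondrial genes left out, 4654 and 454 with Hoxb13 as a continuous level, 2645 and 387 with the dividing level at 6 and 2733 and 293 without libraries near that level. They numbered 100 and 12 with the mitochondrial share as a covariate, 113 and 19 with that share and median-ratio scaling, 319 and 27 with the neutrophil score, 135 and 44 in sham and ISM012-042 alone, and 85 and 0 in limma with the adipocyte score (156 lower at an unadjusted p under 0.05). A dividing level of 4 gave 1788 higher genes. Lower genes numbered 90 at a minimum of 5 TPM, 62 without the treatment covariate and 1352 with median-ratio scaling and the Hoxb13 level.

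With the replicate number as a block 475 genes were higher and 106 lower, and in this pairing Ang4 stood at 0.08567 and Hoxd10 at 0.116. Libraries matched best with their own number in 4 of 18 cases, so the block stands for no known pairing.

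Leaving out 1 library gave 382 to 1985 higher and 37 to 275 lower genes. The higher count was 1419, 1985 and 1674 without sham replicates 1 and 3 and ISM012-042 replicate 4. It was 410, 499, 494, 618 and 477 without Vehicle replicates 1 to 5 and 522 and 382 without ISM012-042 replicates 3 and 5. The lower count was 69, 82 and 37 without sham replicates 4 to 6, 37, 62, 61, 76, 86 and 257 without Vehicle replicates 1 to 6, and 87, 57, 275 and 47 without ISM012-042 replicates 2 to 5. The mitochondrial share difference ran from -10.75 to -8.111 points, and at -9.018 without sham replicate 6 and -8.5 without ISM012-042 replicate 5 it no longer passed the exact permutation test.

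Within sham 67 genes passed with a pseudocount of 0.1 and 197 with median-ratio scaling. Leaving out libraries gave 0 to 171, with 0 without sham replicate 1 or 6, 31, 52 and 60 without sham replicates 3 to 5 and 171 without Vehicle replicate 1. Within Vehicle 3045 passed with median-ratio scaling, 2733 with mitochondrial genes left out and 3391 to 6815 with a library left out, the lowest without Vehicle replicate 5. Within ISM012-042 17 passed with a pseudocount of 0.1, 24 without a filter, 17 without mitochondrial genes and 0 to 41 with a library left out. These were 5, 26, 6 and 5 without sham replicate 5 and Vehicle replicates 1 to 3, and 3, 5, 3, 41 and 0 without ISM012-042 replicates 1 to 5. The Vehicle minus sham test passed for 2280 genes without a filter, 698 with median-ratio scaling, 733 without mitochondrial genes and 0 to 4445 with a library left out. It passed for 0, 2184 and 1 when sham replicate 1, 3 or 6 was dropped and for 1650, 1236 and 2357 when Vehicle replicate 2, 5 or 6 was dropped. Without a filter 14 genes passed for ISM012-042 minus sham and 3 for ISM012-042 minus Vehicle. With a library left out these were 0 throughout and 0 to 1, the 1 without ISM012-042 replicate 6.

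With the set in the model, Vehicle against sham called 1751 genes with median-ratio scaling, 1554 without mitochondrial genes and 399 to 1156 with a library left out, with 399, 455 and 464 when sham replicate 1, sham replicate 6 or Vehicle replicate 2 was dropped. ISM012-042 against sham called 1077, 1628 and 235 to 729 genes. Of these, 257, 246, 311 and 235 came without sham replicates 1, 2, 4 and 5, 729 came with Vehicle replicate 5 left out, and 265, 291, 250 and 287 without ISM012-042 replicates 1, 2, 4 and 5. ISM012-042 against Vehicle called 0 genes in limma with each library left out, as reported.

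Sign changes concerned genes that did not pass as reported, and not all of them were near 0 before the change. With a library left out Retnlg ran from 0.7111 to 1.646, Alox5ap from 0.6003 to 1.284 and Cldn4 from 0.5218 to 0.832. With median-ratio scaling Cdx1 stood at -0.1608, Scnn1b at -0.0891, Mylpf at -0.0259, Epcam at -0.008112 and Hoxd11 at -0.003361. Without mitochondrial genes Cdx1 stood at -0.1354, Scnn1b at -0.06607, Hoxd11 at -0.01677 and Mylpf at -0.008172. With the mitochondrial share Retnlg stood at -0.2462, Krt18 at -0.2362, Alox5ap at -0.1412, Cldn4 at -0.06448, Epcam at -0.05512 and Hoxd10 at 0.2286, and with median-ratio scaling too at -0.2498, -0.2079, -0.1296, -0.03697, -0.02681 and 0.2737. With median-ratio scaling and the Hoxb13 level Cdx1 stood at -0.03791, Scnn1b at -0.03647, Mylpf at -0.0212, Tnfrsf17 at -0.00803, Epcam at -0.006438, Saa1 at -0.001879 and Hoxd11 at -0.001071. In sham and ISM012-042 alone Krt18 stood at -0.1255, Epcam at -0.02586, Krt19 at -0.01921 and Hoxd10 at 0.1748. A dividing level of 4 gave Ang4 0.1275, Hoxd11 -0.01136 and Scnn1b -0.009484, and the Hoxb13 level gave Ang4 0.04121. Hoxd10 stood at 0.05778 with the adipocyte score and 0.01206 with a pseudocount of 5, Oas3 at 0.05823 with array weights and Hoxa11 at 0.01686 with the smooth muscle score. With a library left out Hoxd10 stood at 0.07739, 0.06727, 0.02346 and 0.002119 (ISM012-042 replicate 6, Vehicle replicates 2 and 3, sham replicate 4), Acta1 at 0.05156 (ISM012-042 replicate 1) and Ang4 at 0.003078 (sham replicate 1). Their lowest values were -0.2808, -0.3056 and -1.104.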
